A study of Mus musculus with 20 samples.

Results

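The genes described here encode the nuclear part of the mitochondrial respiratory chain and the ATP synthase. They were taken by symbol: every gene with a single annotated symbol beginning with Ndufa, Ndufb, Ndufc, Ndufs, Ndufv, Sdh, Uqcr, Cox4 to Cox8 or Atp5. The rule found 94 of 18194 genes on the array, and 91 were bright enough to be tested among 13479 genes in all. Cox7a1, Cox7b2 and Ndufb4 were too dim. The 91 comprise 33 subunits of complex I, 4 of complex II, 8 of complex III, 17 of complex IV (with Ndufa4, Ndufa4l2 and Cox7a2l), 17 of complex V and 12 assembly factors of complexes I and II.

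Complexes I and II pass electrons from NADH and succinate to ubiquinone, complex III passes them on to cytochrome c, and complex IV to oxygen. Complexes I, III and IV pump protons across the inner mitochondrial membrane, and complex V, the ATP synthase, lets them flow back to make ATP. Complex II is built from nuclear genes alone, whereas the other complexes also hold subunits made from mitochondrial DNA, which are not described here. Hematopoietic stem cells are known to rely comparatively little on this pathway while they rest.

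RNA from cells sorted from mouse bone marrow, at an age of 8 to 14 weeks, was hybridised to 20 Affymetrix arrays. C57bl/6 wild-type mice gave 2 arrays each of HSC (hematopoietic stem cells), MPP (multipotent progenitors), LMPP (MPP primed towards the lymphoid lineage), pro-B cells and CD4 T cells. They gave 3 arrays each of CLP (common lymphoid progenitors) and GMP (granulocyte-macrophage progenitors). From mice of the 129 background came mature NK cells, either Rag2-- Ets1++ (n = 2) or Rag2-- Ets1-- (n = 2). Both NK groups lack Rag2, a loss that leaves mice without mature T and B cells. Strain and Rag2 genotype therefore cannot be told apart from cell type wherever NK cells are set against CD4 T cells. Levels below are log2 intensities of 1 probe set per gene and compare samples, not genes. No label ties a replicate to its own animal, and the spread behind each p-value may thus be technical. The comparisons of CLP, GMP and pro-B cells share the same LMPP arrays. In sorted bulk samples, fewer cells of a type and less RNA per cell cannot be told apart.

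The marker lists of HSC, CLP, pro-B, CD4 T, GMP and NK cells each had their highest summed intensity in the population they mark. The LMPP list was higher in CLP (12723 to 16068) than in LMPP (8881 to 8984), and MPP had no list of its own. The arrays labelled Ets1-deficient still held Ets1 signal, at 11.28 and 10.85 against 11.34 and 11.45 on its brightest probe set. All 4 Ets1 probe sets were lower there, by differences from -1.55 to -0.33. The labels do not say which part of Ets1 was deleted, so these probe sets do not settle the genotype label. Arrays differed in the actin 3'/5' ratio, the log2 excess of a 3' over a 5' actin probe set, which grows as the 5' end is lost. It is used here as a sign of RNA quality, and whether RNA quality set it was not tested. The ratio was 5.20 and 5.27 on CLP arrays 1 and 3 but 3.26 on CLP array 2, it was highest on the 3 GMP arrays at 6.44 to 6.68, and it ran from 0.97 to 4.07 on the other arrays.

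The respiratory chain was lowest in CLP, close to the overall mean in the early progenitors, and, by group mean, highest in NK cells labelled Ets1-deficient. When each gene was centred on the mean of its 9 group means, the median over the 91 genes was -0.20 and -0.14 on the HSC arrays. It was -0.06 and -0.03 on the MPP arrays, and -0.07 and -0.01 on the LMPP arrays. CLP arrays 1, 2 and 3 had -1.21, -0.40 and -1.20. Thus array 2, the CLP array with the lower 3'/5' ratio, lay between the other CLP arrays and every other group. The pro-B arrays were far apart, at -0.04 and 0.59. CD4 T cells had 0.12 and 0.04, and GMP had 0.21, 0.19 and 0.03. NK cells had 0.27 and 0.25 when Ets1-present and 0.44 and 0.43 when labelled Ets1-deficient. Over all tested genes the same medians stayed between -0.22 and 0.06.

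**Figure D1:**
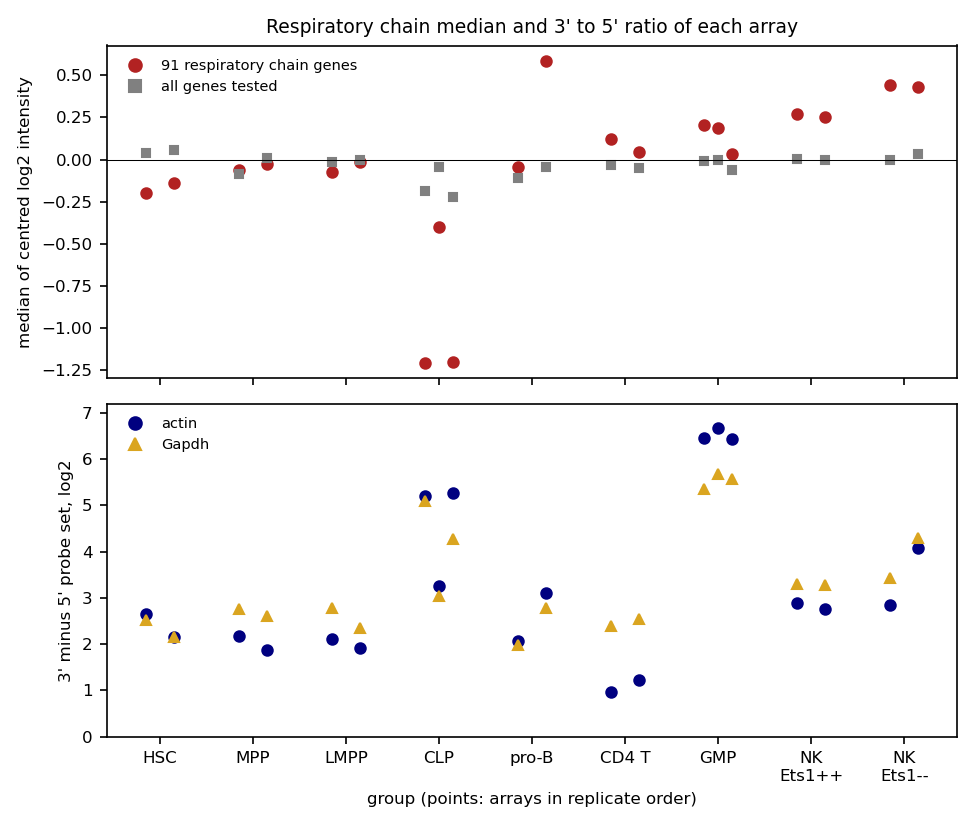
Upper panel: median centred log2 intensity of the 91 respiratory chain genes (circles) and of all tested genes (squares) on each of 20 arrays, by group. Lower panel: log2 difference between the 3' and 5' probe sets of actin (circles) and Gapdh (triangles); CLP arrays 1 and 3 have low medians of -1.21 and -1.20 with actin differences of 5.20 and 5.27, while GMP arrays have higher actin differences and medians from 0.03 to 0.21.

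Single genes varied more than these medians. The range between a gene's highest and lowest group mean had a median of 1.90 log2 units over the 91 genes, and it exceeded 1 for 85 and 2 for 42. Without CLP the median range was 1.31, with 65 genes above 1 and 19 above 2. CLP was the lowest group for 67 genes. Without CLP, the lowest group was HSC for 27 genes, GMP for 19, Ets1-present NK cells for 17 and MPP for 12. The highest group was Ets1-deficient NK cells for 32 genes, pro-B cells for 16 and GMP for 11. Complex II was arranged differently from complex I. Its median in Ets1-present NK cells was -0.46 and -0.50, below every array but CLP arrays 1 and 3, while complex I stood at 0.39 and 0.37 on the same arrays.

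**Figure D2:**
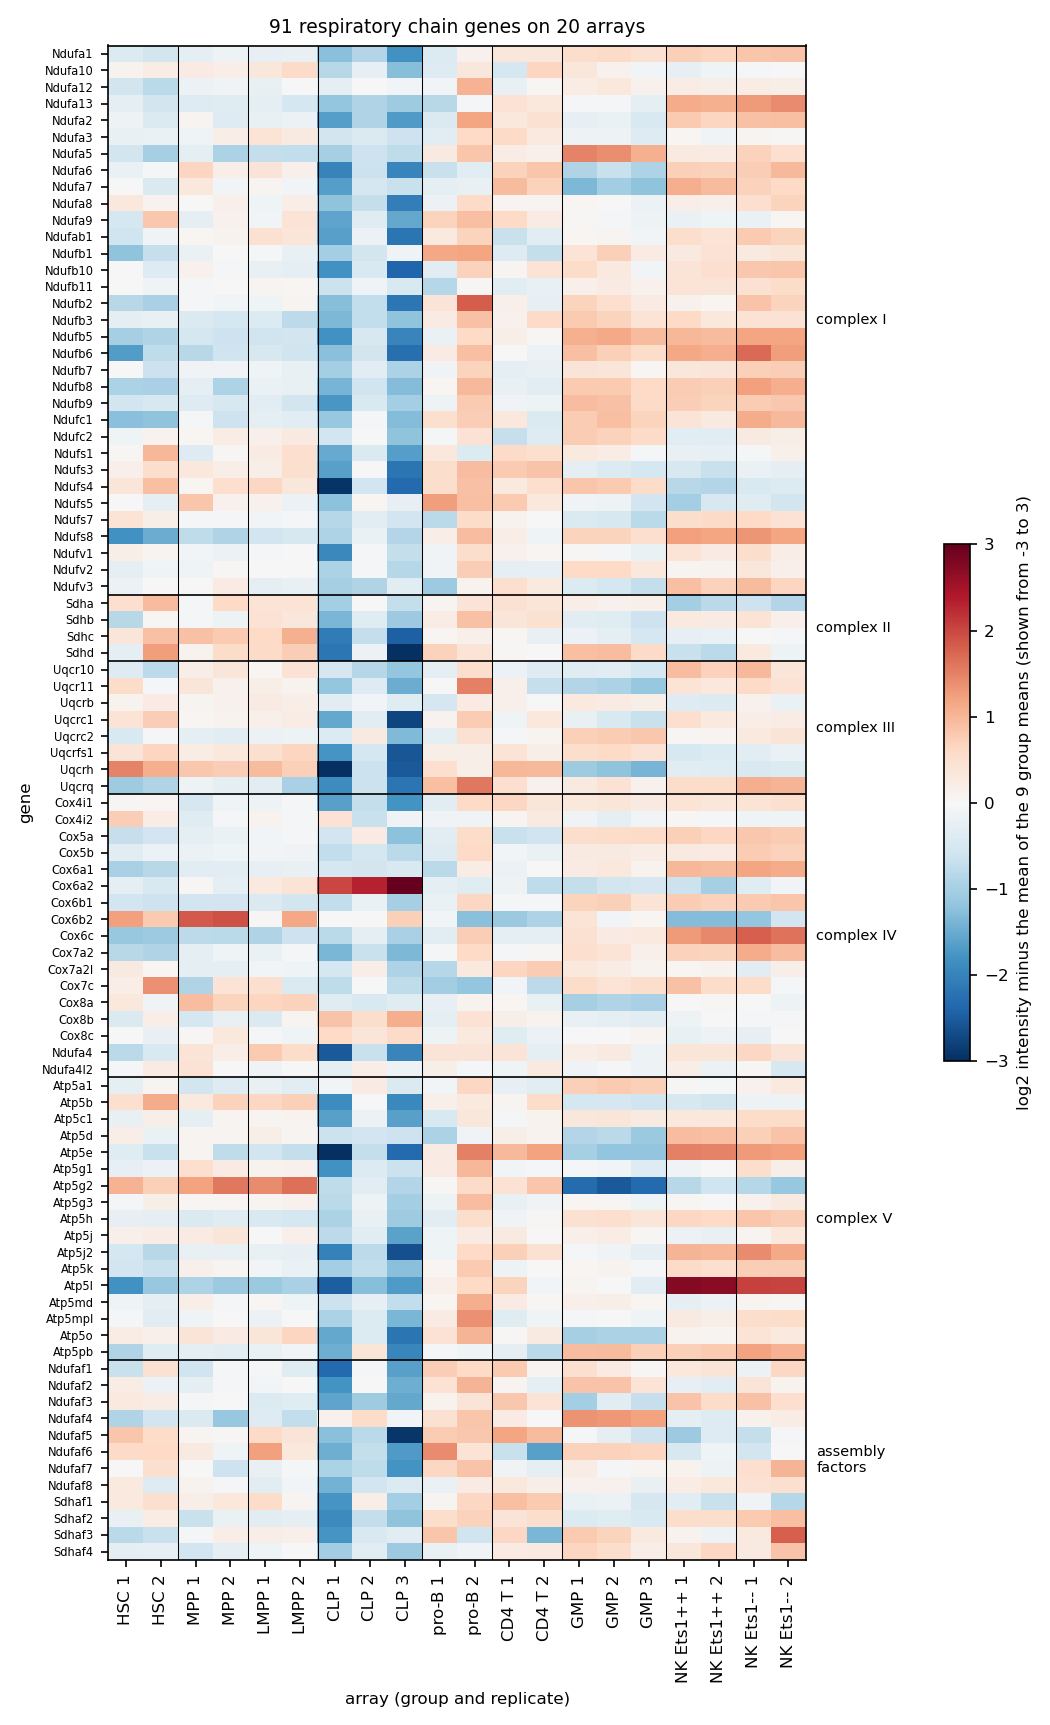
Log2 intensity of each of the 91 genes (rows, by complex) on each of 20 arrays (columns, by group), minus the mean of the gene's 9 group means; red is higher and blue lower. CLP arrays 1 and 3 are blue over most rows, Cox6a2 is the red row in CLP, Atp5l in NK cells, and Atp5g2 is blue in GMP.

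The 3 genes with the widest range all belonged to the ATP synthase: Atp5l (4.55), Atp5g2 (3.93) and Atp5e (3.58). Atp5l encodes the g subunit of the membrane part and had 1 probe set. It stood at 4.98 and 5.65 in HSC, 5.86 and 5.70 in MPP, 5.68 and 5.82 in LMPP, and 4.31, 5.51 and 5.08 in CLP. It was higher in pro-B cells (6.94 and 7.39), CD4 T cells (7.46 and 6.70) and GMP (6.86, 6.77 and 6.44). The NK arrays were highest and did not overlap any other group, with 9.53 and 9.49 when Ets1-present and 8.85 and 8.81 when labelled Ets1-deficient.

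Atp5g2 is 1 of the genes for the c subunit, whose ring turns as protons pass. It was highest in the early progenitors, at 10.18 and 9.85 in HSC, 10.34 and 10.73 in MPP and 10.55 and 10.79 in LMPP. CLP arrays had 8.38, 8.79 and 8.25, pro-B arrays 9.17 and 9.71, and CD4 T arrays 9.56 and 9.98. GMP arrays were lowest at 6.82, 6.60 and 6.80, and NK arrays lay between at 8.31 and 8.54 and at 8.28 and 7.99. Its other probe sets were near background, with means of 3.24 and 2.33, and did not show this pattern. Atp5g1 and Atp5g3 encode the same mature c subunit, and neither was called between GMP and LMPP. Atp5g3 stood at 12.30, 12.29 and 12.12 in GMP against 12.32 and 12.39 in LMPP. Atp5g1 stood at 8.15, 8.11 and 7.82 against 8.31 and 8.34.

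Atp5e, the epsilon subunit of the catalytic head, was at 10.55 and 10.54 in Ets1-present NK cells, 10.02 and 10.26 in CD4 T cells, and 5.85, 8.33 and 6.73 in CLP. Those CLP values show array 2 on the side of LMPP (8.48 and 8.33) and arrays 1 and 3 far below. The narrowest ranges belonged to Ndufa4l2 (0.43), Uqcrb (0.64) and Cox4i2 (0.69). Uqcrb, a small subunit of complex III, lay between 12.39 and 13.18 on every array, whereas Ndufa4l2 and Cox4i2 stayed at or below 4.50 on every array.

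The upstream windows of 3 members are shown that hold the letters of factors known for respiratory chain promoters: NRF1, the ETS factor GABP, and YY1. For each factor, the member called in most comparisons was taken from those with a match wholly before the start site, with ties settled by name. The 7-base cores CCGGAAG (ETS and GABPA), CATGCGC (NRF1) and AAGATGG (YY1) were searched on both strands in RefSeq windows of GRCm38.p6, from 250 bases before to 50 after each start site. Of the 94 genes, 78 had a window. Each sequence below gives the 250 upstream bases 5' to 3' on the gene's strand, with every match of the 3 cores in capitals. Atp5l lies at chr9:44920743-44920992 (minus strand), Atp5g2 at chr15:102671048-102671297 (minus strand) and Atp5j, a stalk subunit of complex V, at chr16:84834977-84835226 (minus strand).
Atp5l: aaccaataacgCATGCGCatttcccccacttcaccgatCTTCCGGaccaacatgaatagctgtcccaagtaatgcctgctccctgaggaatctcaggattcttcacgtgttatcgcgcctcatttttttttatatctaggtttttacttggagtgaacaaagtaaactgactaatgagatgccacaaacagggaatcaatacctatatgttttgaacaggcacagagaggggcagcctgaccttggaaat
Atp5g2: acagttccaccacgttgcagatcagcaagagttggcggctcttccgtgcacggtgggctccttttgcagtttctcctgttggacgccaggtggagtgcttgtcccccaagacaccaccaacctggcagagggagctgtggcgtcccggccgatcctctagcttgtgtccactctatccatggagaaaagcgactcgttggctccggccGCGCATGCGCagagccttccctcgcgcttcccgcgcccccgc
Atp5j: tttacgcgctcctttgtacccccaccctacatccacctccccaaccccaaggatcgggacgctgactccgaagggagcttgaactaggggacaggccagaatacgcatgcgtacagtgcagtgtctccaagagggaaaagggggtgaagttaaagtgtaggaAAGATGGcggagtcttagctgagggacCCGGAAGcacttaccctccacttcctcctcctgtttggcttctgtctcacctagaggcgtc
In Atp5l the first base of the NRF1 letters is 239 bases before the start and that of the ETS letters 212. In Atp5g2 the NRF1 letters occur at 42 and 39 bases on opposite strands and overlap. In Atp5j the YY1 letters are at 88 bases and the ETS letters at 61. The ETS core occurred in 28.2% of the 78 genes with a window against 9.93% of 27025 genes. The NRF1 core occurred in 17.9% against 4.41%, and the YY1 core in 14.1% against 7.28%. Median GC content was 59.0% in the windows of the members and 52.7% in all windows, and no share was corrected for it. A match is a run of letters and does not show binding.

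Between MPP and HSC none of the 91 genes was called in the fit of all arrays (limma, Benjamini-Hochberg adjusted p below 0.05 over all tested genes), against 5.93% of all genes (1.94% higher and 3.99% lower), and 12 had an unadjusted p below 0.05. That count depended on the setting: 8 were called after repeated quantile normalization (5.89% of all genes), 8 with CLP arrays 1 and 3 left out of the pooled error (12.1%) and 5 under housekeeping centring (2.98%). The median difference was 0.11, against -0.14 over all genes. Of the 33 complex I genes, 25 had a difference above 0. Ndufs8, an iron-sulfur subunit of complex I, stood at 8.44 and 8.75 in HSC and 9.49 and 9.36 in MPP, a difference of 0.83 ± 0.28 (SE, adjusted p = 0.0920, limma). The cell cycle list, by contrast, had 10 of 18 genes called higher and none lower, led by Ccna2 (3.74 ± 0.69, adjusted p = 0.00249, limma) and Birc5 (3.51 ± 0.57). Leaving out HSC array 1 or 2 moved Ccna2 to 1.92 or 5.56 and Birc5 to 2.20 or 4.83, and both stayed called. With only the HSC and MPP arrays fitted, neither was called. Ppargc1b, a coactivator of mitochondrial biogenesis, rose by 1.28 ± 0.35 (adjusted p = 0.0386, limma), and Twnk, the mitochondrial DNA helicase, fell by 0.98 (SE 0.28, adjusted p = 0.0478, limma). Both calls ended when single arrays were left out: Ppargc1b at 1.28 without either HSC array and 0.99 without MPP array 1, and Twnk at -0.88 and -1.08 without HSC array 1 or 2 and at -0.81 and -1.15 without MPP array 1 or 2.

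Between LMPP and MPP no respiratory chain gene was called, against 1.71% of all genes (0.942% higher and 0.772% lower), and 1 had an unadjusted p below 0.05. That gene was Cox6b2, the testis-type isoform of a complex IV subunit. It was brightest in MPP (6.14 and 6.22), with HSC at 5.52 and 5.08 and LMPP at 4.33 and 5.46. Its difference was -1.29 ± 0.38 (SE, adjusted p = 0.138, limma). The median difference of the 91 genes was 0.07, against 0.05 over all genes. None of the TCA cycle, biogenesis, protein import or cell cycle lists had a called gene in this comparison.

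CLP had lower respiratory chain signal than LMPP in every complex, and the size of the difference moved with single arrays. Of the 91 genes, 50 were called lower and 3 higher, or 58.2% in either direction, against 26.1% of all genes (19.2% lower and 6.96% higher). The median difference was -0.88, against -0.08 over all genes. All 4 subunits of complex II were called lower, as were 17 of 33 in complex I, 5 of 8 in complex III, 5 of 17 in complex IV, 11 of 17 in complex V and 8 of 12 assembly factors. Each CLP array on its own gave a different picture. Arrays 1 and 3 each lay below both LMPP arrays for 84 members (92.3%), against 49.6% and 52% of all genes, with medians of -1.21 and -1.13 against the LMPP mean. Array 2 did so for 64 members (70.3%), against 44.2% of all genes, with a median of -0.38. With array 2 as the single CLP array, 12 genes were called, 10 lower and 2 higher, against 9.12% of all genes.

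**Figure D3:**
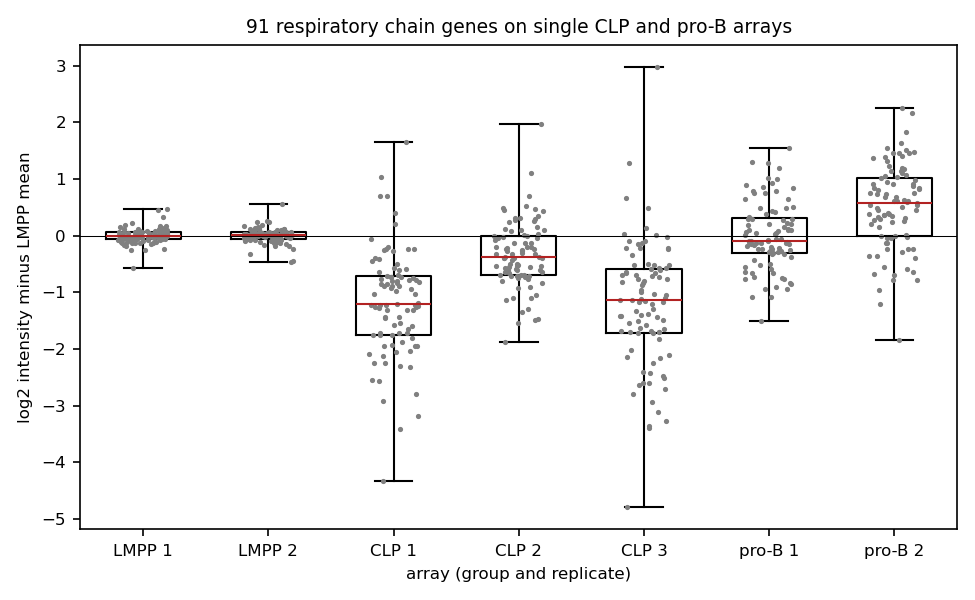
Log2 intensity of 91 respiratory chain genes minus the mean of both LMPP arrays, on single LMPP, CLP and pro-B arrays (points are genes, boxes show quartiles and median, whiskers the full range). CLP arrays 1 and 3 have medians of -1.21 and -1.13, CLP array 2 -0.38, and pro-B arrays 1 and 2 -0.09 and 0.57.

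The largest fall was that of Uqcrh, the hinge protein of complex III, which was at 10.52 and 10.28 in LMPP and at 6.07, 8.92 and 7.04 in CLP. All CLP arrays lay below LMPP. The difference was -3.06 ± 0.48 (adjusted p = 0.000243, limma) and -1.48 with CLP array 2 alone. Ndufs4, a complex I subunit needed for its assembly and stability, was at 8.87 and 8.59 in LMPP and at 5.31, 7.69 and 5.93 in CLP (-2.42 ± 0.44, and -1.04 with array 2 alone). Ndufa4, a complex IV subunit first assigned to complex I, fell from 9.41 and 9.18 to 6.12, 7.95 and 6.65 (-2.39 ± 0.37, and -1.35 with array 2 alone). Atp5g2 changed nearly as much on array 2 as on the others (-2.20 ± 0.26, and -1.88 with array 2 alone). With only the CLP and LMPP arrays fitted, the calls of Uqcrh and Ndufs4 ended, and those of Ndufa4 and Atp5g2 held.

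Complex II was represented by the flavoprotein Sdha, the iron-sulfur subunit Sdhb and the membrane anchors Sdhc and Sdhd. Sdhd had the largest difference and the widest CLP spread, at 6.35, 8.33 and 4.37 against 9.08 and 9.24 in LMPP (-2.81 ± 0.68, adjusted p = 0.00543, limma). The difference was -0.83 with CLP array 2 alone. Its call ended without LMPP array 2 (-2.73) and with only the CLP and LMPP arrays fitted. Sdhc was at 5.64, 7.02 and 5.29 against 8.33 and 8.80 (-2.58 ± 0.36), while its second probe set differed by -0.18. Sdhb (-1.33 ± 0.30) and Sdha (-0.99 ± 0.27) fell less. Among assembly factors, Ndufaf5 fell by 2.14 (SE 0.43, adjusted p = 0.00154, limma). It was not called under housekeeping centring (-0.84) or with only the CLP and LMPP arrays fitted.

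Cox6a2, the isoform of complex IV subunit 6a best known from heart and skeletal muscle, went the opposite way. It was at 7.82, 8.13 and 9.13 in CLP and at 6.10 and 6.22 in LMPP, and no array outside CLP exceeded 6.22. It rose by 2.20 ± 0.31 (4.60-fold, adjusted p = 8.67e-05, limma), by 1.97 with CLP array 2 alone, and by 3.52 on its second probe set. The widely expressed isoform Cox6a1 was at 11.53, 11.47 and 11.57 in CLP against 11.78 and 11.80 in LMPP and was not called. Cox8b, another muscle-type isoform, rose by 1.01 ± 0.25 (adjusted p = 0.00630, limma) at a low level, with 4.58, 4.25 and 4.82 against 3.29 and 3.81, both below the LMPP arrays' medians. Ndufaf4, an assembly factor of complex I, rose by 0.77 ± 0.26 (adjusted p = 0.0398, limma), a call that ended without CLP array 1 (0.80), CLP array 2 (0.59), LMPP array 1 (0.94) or LMPP array 2 (0.59). That call also ended with only the CLP and LMPP arrays fitted.

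Other nuclear lists were lower in CLP as well. Called lower were 9 of 16 TCA cycle genes, led by Dld (-2.10) and Ogdh (-1.84), 8 of 18 genes for cytochrome c and assembly of complexes III and IV, led by Bcs1l (-1.56) and Cox18 (-1.46), and 10 of 17 protein import genes, led by Timm50 (-2.30) and Timm8a1 (-1.86). Also called lower were 11 of 18 cell cycle genes, led by Ccnb2 (-3.0) and Cdk1 (-2.92), and 7 of 12 housekeeping genes, led by Chmp2a (-3.41) and Hprt (-2.09). The housekeeping list had a median of -1.10, below that of the respiratory chain. Dld, Timm8a1 and Cox18 lost their calls without any 1 of several arrays (Dld -1.30 and Timm8a1 -1.46 without CLP array 1, and -1.77 and -1.29 without CLP array 3; Cox18 -0.91 without CLP array 3). Without LMPP array 1 or 2 these 3 calls also ended (Dld -2.20 and -2.0, Timm8a1 -1.81 and -1.91, Cox18 -1.51 and -1.41). The carrier list had 1 higher and 3 lower of 8, led by Atpif1, the inhibitor of ATP hydrolysis (-2.14 ± 0.40), and the ADP/ATP carrier Slc25a5 (-1.72 ± 0.33). The biogenesis list had Gabpb1, a partner of GABPA, lower (-1.60 ± 0.41) and the coactivator Pprc1 higher (0.96 ± 0.28). With CLP array 2 alone the calls of Slc25a5 (-0.80), Bcs1l (-0.77), Cox18 (-0.21), Gabpb1 (-0.45) and Pprc1 (0.85) ended, and Dld (0.16) and Timm8a1 (0.086) turned sign. Under housekeeping centring those of Ogdh (-0.55), Dld (-0.81), Timm8a1 (-0.57), Slc25a5 (-0.43), Bcs1l (-0.27), Cox18 (-0.17) and Gabpb1 (-0.30) ended, and with averaged probe sets those of Timm50 (-0.51), Dld (-0.93) and Timm8a1 (-0.95). The Gabpb1 call ended without LMPP array 1 (-1.59) or 2 (-1.60), and that of Pprc1 without CLP array 3 (0.77) and without LMPP array 1 (0.91) or 2 (1.01). With only the CLP and LMPP arrays fitted, the calls of all list genes named here ended except Ccnb2 and Cdk1.

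Without CLP array 1 or 3, 34 and 39 respiratory chain genes were called, against 19.2% and 20.4% of all genes. Without CLP array 2 the count was 70, against 38.7%. It was 5, against 4.09% of all genes, when the CLP and LMPP arrays were fitted alone. Without LMPP array 1 or 2 the median difference was -0.90. When arrays were centred on the housekeeping genes, the split turned to 31 higher and 9 lower, while 69% of all genes were called. The median of all genes then moved from -0.08 to 1.22. Relative to the median of all genes, which such centring cannot alter, the members' median was -0.81. The part of RNA quality in the CLP difference was not tested.

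**Figure D4:**
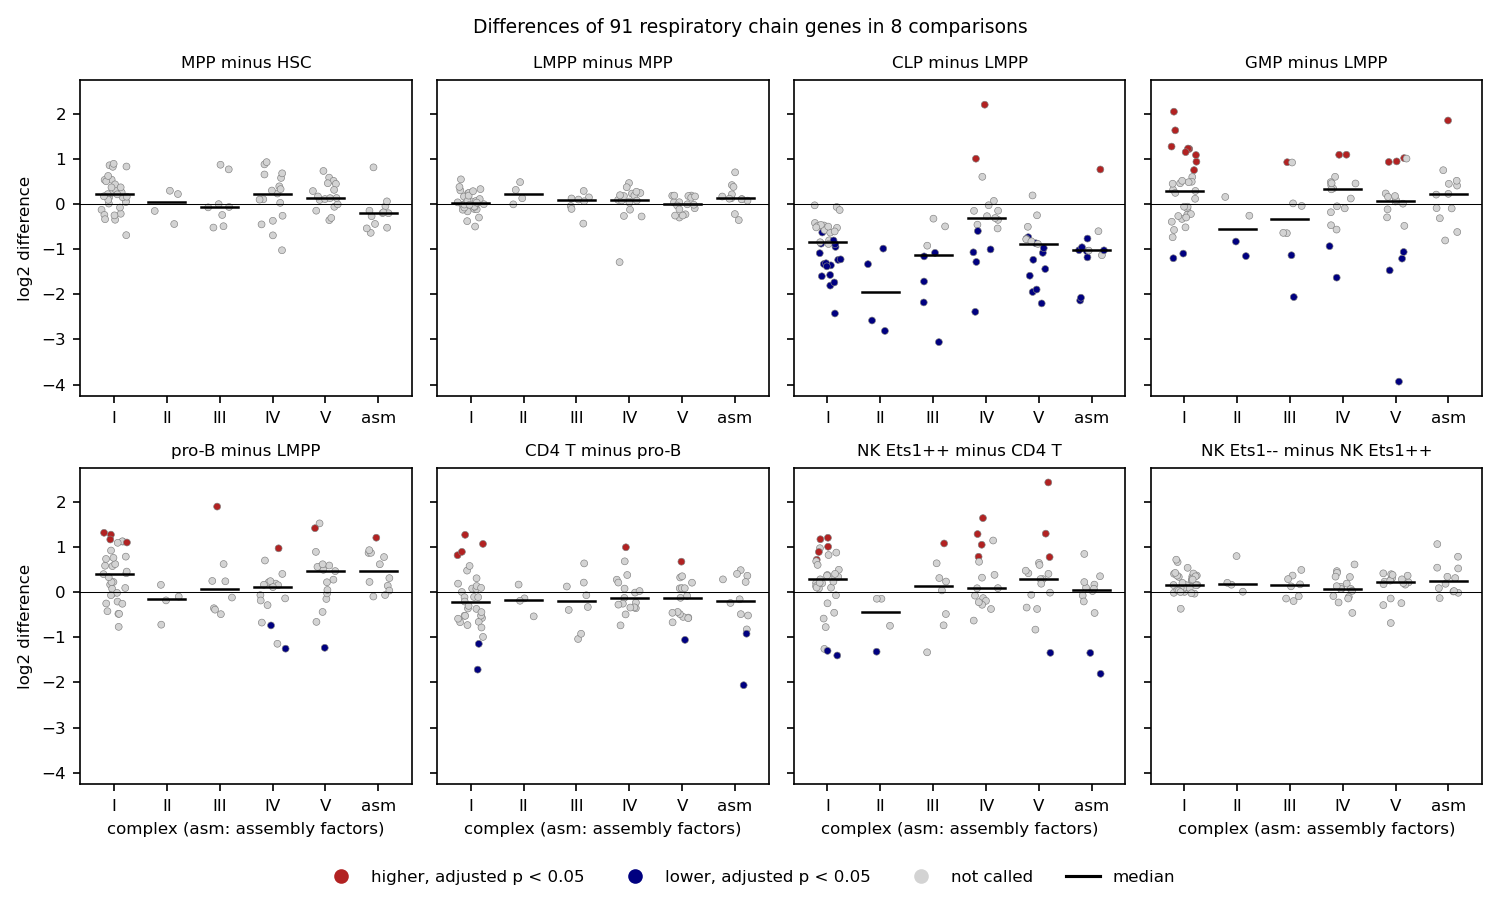
Log2 differences of 91 respiratory chain genes in 8 comparisons, by complex (points are genes; red called higher, blue called lower, grey not called; bars are medians). CLP minus LMPP has 50 blue and 3 red points, GMP minus LMPP 12 and 16, and the NK genotype comparison none.

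In GMP some respiratory chain genes rose and others fell. The actin 3'/5' ratio was 6.44 to 6.68 on the GMP arrays and 2.10 and 1.92 on the LMPP arrays. The part of RNA quality in the GMP differences was not tested. Against LMPP, 16 genes were called higher and 12 lower, or 30.8%, close to the 28.9% of all genes (16% higher and 13% lower), and the median difference was 0.12. In complex I 9 genes were called higher and 2 lower, in complex II 0 and 2, in complex III 1 and 2, in complex IV 2 and 2, in complex V 3 and 4, and among assembly factors 1 and 0. Atp5g2 had the largest change of any member in any comparison (-3.93 ± 0.26, 15.3-fold lower, adjusted p = 2.10e-09, limma). It was called lower under all 15 alternative settings, at -4.05 to -1.20. Uqcrh was at 8.49, 8.35 and 8.18 (-2.06 ± 0.48), and its second probe set differed by -1.20 as well. Cox8a, the widely expressed isoform of complex IV subunit 8, was at 7.47, 7.57 and 7.49 against 9.11 and 9.17 in LMPP (-1.63 ± 0.22, adjusted p = 2.23e-05, limma).

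Among the genes that rose, Ndufaf4 was at 9.32, 9.26 and 9.19 in GMP and at 7.58 and 7.23 in LMPP, above every other array of the series. The difference was 1.85 ± 0.26 (adjusted p = 3.69e-05, limma), and 2.95 on its second probe set. Ndufa5, a subunit of the matrix arm of complex I, was at 10.83, 10.73 and 10.41 against 8.63 and 8.59 (2.05 ± 0.26), yet its second probe set differed by 0.05. Cox6c, a small complex IV subunit, rose by 1.09 ± 0.27 and Atp5a1, the alpha subunit of the catalytic head, by 1.02 ± 0.23. Sdhc (-1.15 ± 0.36), Ndufa7 of complex I (-1.20 ± 0.29) and Uqcrc2, a core subunit of complex III (0.93 ± 0.32), were also called.

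The direction depended on the probe set in several of these genes. Of 20 called genes with a second probe set bright enough to test, 15 had it in the same direction, and Atp5a1, Atp5h, Ndufb5, Ndufb9 and Uqcrc2 had it in the opposite one. With all probe sets of a gene averaged, the median difference of the 91 genes was -0.07. Single arrays ended some calls: Cox6c without LMPP array 1 (0.96), Ndufa7 without LMPP array 1 (-1.12), Sdhc without GMP array 2 (-1.17) or 3 (-1.06) or LMPP array 1 (-1.39) or 2 (-0.92), and Uqcrc2 without any GMP array (0.94, 0.93 and 0.91) or LMPP array (0.92 and 0.94). Without GMP array 1, 2 or 3 the count of called genes was 19, 19 and 22, against 21.8%, 22.1% and 24% of all genes. Without LMPP array 1 or 2 the median difference was 0.096 and 0.105.

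In the other lists GMP had Idh2, the NADP-linked isocitrate dehydrogenase, at -1.98 ± 0.31 (adjusted p = 9.13e-05, limma) and Idh3a of the TCA cycle at 1.19 ± 0.41 (adjusted p = 0.0347, limma), with 2 higher and 2 lower of 16. The list for cytochrome c and assembly had 5 higher and 1 lower of 18, led by the copper factors Sco1 (1.68 ± 0.34) and Cox11 (1.56 ± 0.46). Protein import had 5 higher and 1 lower of 17, led by Timm17a (1.42 ± 0.39) and Tomm70a (1.27 ± 0.24). The biogenesis list had 5 higher and 1 lower of 16, with Gabpb1 at -2.05 ± 0.41 and Polg, the mitochondrial DNA polymerase, at 1.25 ± 0.37. With probe sets averaged the calls of Idh2 (-0.40) and Polg (0.16) ended, and that of Polg also after quantile normalization (1.15) and housekeeping centring (1.22). Without single arrays the calls of Idh3a (1.15 to 1.23, any array), Cox11 (1.22, LMPP array 2), Timm17a (1.32, LMPP array 2) and Polg (1.18 without GMP array 1, 1.37 and 1.13 without LMPP array 1 or 2) ended.

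Pro-B cells had 8 genes called higher and 3 lower than LMPP, or 12.1%, against 17.2% of all genes (6.91% higher and 10.3% lower). The median difference was 0.22, against -0.06 over all genes, but the arrays differed. Array 2 lay above both LMPP arrays for 66 members (72.5%, median 0.57), against 41.2% of all genes, and array 1 for 38 (41.8%, median -0.09), against 34.9%. Array 2 was above array 1 by a median of 0.63 over the 91 genes. The centred medians of arrays 1 and 2 were -0.04 and 0.59 for the members, and -0.11 and -0.04 over all genes. The actin 3'/5' ratio was 3.11 on array 2 and 2.07 on array 1. Whether that ratio plays a part was not tested. Leaving out pro-B array 1 gave a median difference of 0.57, and leaving out pro-B array 2 gave -0.09. Leaving out LMPP array 1 or 2 gave 0.21 and 0.26.

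Several calls rested on both pro-B arrays. Uqcrq, a small subunit of complex III, was at 9.17 and 9.87 against 7.95 and 7.31 in LMPP (1.90 ± 0.39, adjusted p = 0.00182, limma). Ndufb1 of complex I was at 5.89 and 5.90 against 4.66 and 4.50 (1.32 ± 0.28, adjusted p = 0.00270, limma), with the pro-B arrays above all others of the series. Both were called without each single array in turn, and Ndufb1 was not called under housekeeping centring (1.34). Atp5l (1.42 ± 0.36), Ndufaf4 (1.21 ± 0.29) and Cox6c (0.97 ± 0.29) rose, and Atp5g2 (-1.23 ± 0.28) and Cox6b2 (-1.25 ± 0.38) fell. Without pro-B array 2 the calls of Atp5l (1.19), Ndufaf4 (1.01), Cox6c (0.44) and Cox6b2 (-0.66) ended, and without pro-B array 1 that of Atp5g2 (-0.96). Without LMPP array 1 those of Atp5l (1.35) and Cox6c (0.83) ended, and without LMPP array 2 those of Ndufaf4 (1.03), Cox6c (1.11), Cox6b2 (-0.69) and Atp5g2 (-1.11). Myc, which drives many genes of mitochondrial biogenesis, fell (-1.60 ± 0.32, adjusted p = 0.00145, limma), and the import subunit Timm17a was higher (1.80 ± 0.42, adjusted p = 0.00539, limma). The Timm17a call ended without LMPP array 2 (1.70).

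CD4 T cells had 6 genes called higher and 5 lower than pro-B cells, or 12.1%, against 28.8% of all genes (17% higher and 11.8% lower). The median difference was -0.16, and it lay at 0.11 without pro-B array 2 and at -0.43 without pro-B array 1. Ndufaf6, an assembly factor of complex I, was at 5.11 and 4.16 in CD4 T cells and at 7.2 and 6.19 in pro-B cells (-2.06 ± 0.41, adjusted p = 0.000599, limma). Ndufb1 was at 4.34 and 4.01 in CD4 T cells (-1.72 ± 0.28, adjusted p = 9.79e-05, limma). Both were called under all 14 alternative settings. Ndufa6 of complex I was higher (1.27 ± 0.35), as was Cox7a2l, a protein of supercomplex assembly (0.99 ± 0.33). Atp5mpl, a small ATP synthase protein, was lower (-1.06 ± 0.34) and Atp5d, the delta subunit of the head, higher (0.68 ± 0.25).

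Those last 4 calls ended without single arrays. Without CD4 T array 2 they were 1.19 for Ndufa6, 0.93 for Cox7a2l, -1.17 for Atp5mpl and 0.71 for Atp5d. Without CD4 T array 1 they were 1.05 for Cox7a2l, -0.95 for Atp5mpl and 0.64 for Atp5d. Without pro-B array 1 they were 1.10 for Ndufa6, 0.42 for Cox7a2l and 0.25 for Atp5d, and without pro-B array 2 Atp5mpl was -0.49. The median difference of the 91 genes was -0.18 and -0.17 without CD4 T array 1 or 2. CD4 T cells were lower in 17 of 18 cell cycle genes, by a median of 4.15, with Ccna2 at 4.67 against 10.89. The carriers Atpif1 (-1.91 ± 0.43) and Vdac1, the outer membrane channel (-1.16 ± 0.20), were lower. Erythroid marker intensity was 211 to 688 in CD4 T cells against 44.3 to 48.2 in pro-B cells. That gain was mainly Alas2 (mean 8.29 against 2.98), while Hba-a1 was at 2.93 and 2.92. The part of these markers was not tested.

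**Figure D5:**
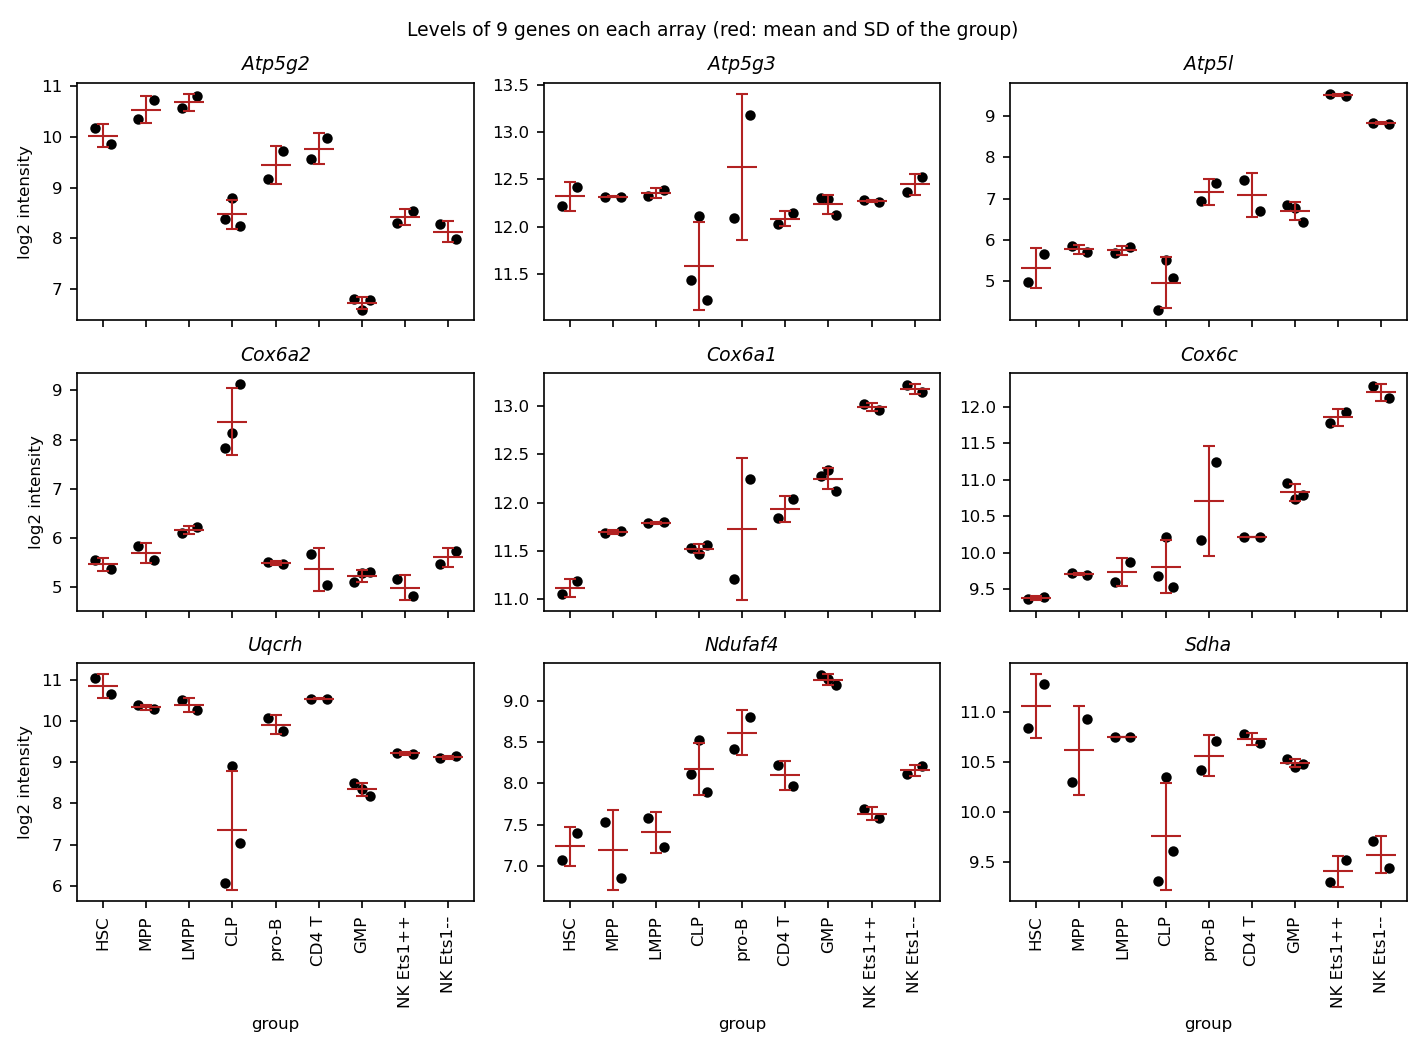
Log2 intensity of 9 genes on each of 20 arrays (points), with the mean and SD of each group in red. Atp5g2 is lowest in GMP while Atp5g3 is not, Atp5l and Cox6c are highest in NK cells, Cox6a2 is high only on the CLP arrays, and Ndufaf4 is highest in GMP.

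Ets1-present NK cells had 13 genes called higher and 6 lower than CD4 T cells, or 20.9%, against 24.5% of all genes (14.3% higher and 10.2% lower), with a median difference of 0.20. Strain and Rag2 genotype differ along with cell type here. Summed erythroid markers were 211 to 688 in CD4 T and 35.4 to 40.3 in NK cells, and summed GMP markers 361 to 362 and 660 to 678. The erythroid gain was mainly Alas2 (mean 8.29 against 2.69), while Hba-a1 was at 2.93 and 2.98. Of the GMP markers, Csf1r was higher in CD4 T cells (8.18 against 6.13). Mpo (3.99 against 8.21), Prtn3 (4.10 against 7.33), Ctsg and Elane were lower there. The part of these markers was not tested. Atp5l had the largest rise (2.43 ± 0.36, 5.39-fold, adjusted p = 4.02e-05, limma). Cox6c was at 11.77 and 11.94 in NK cells and at 10.21 and 10.21 in CD4 T cells (1.64 ± 0.29, adjusted p = 0.000329, limma), and its second probe set was higher by 0.35. Cox6a1 was at 13.02 and 12.96 against 11.84 and 12.03 (1.05 ± 0.25, adjusted p = 0.00350, limma).

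Sdha was the only called member of complex II. It was at 9.30 and 9.52 in NK cells and at 10.77 and 10.69 in CD4 T cells (-1.32 ± 0.30, adjusted p = 0.00286, limma), and its second probe set was lower by 1.48. Atp5l, Cox6c and Sdha were called under all 14 alternative settings. Atp5g2 was lower (-1.34 ± 0.28, adjusted p = 0.00143, limma) but not called with its probe sets averaged (-0.12). Also lower were Ndufaf5 (-1.81 ± 0.47) and Ndufs3, a core subunit of complex I (-1.40 ± 0.45). Ndufb6 of complex I (1.2 ± 0.41) and Uqcr10, a small subunit of complex III (1.08 ± 0.32), rose on the chosen probe set. The second probe set of Ndufb6 was lower by 0.37, and Uqcr10 turned to -0.18 when its probe sets were averaged. In all, 7 of 11 called genes with a second testable probe set had it in the same direction.

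The median difference was 0.21 and 0.15 without CD4 T array 1 or 2, and 0.16 and 0.23 without NK array 1 or 2. Calls ended for Ndufs3 without any of the 4 arrays (-1.44, -1.37, -1.50 and -1.31) and likewise for Ndufb6 (1.30, 1.11, 1.18 and 1.23). They ended for Ndufaf5 without CD4 T array 1 (-1.69) or NK array 1 (-1.45), and for Uqcr10 without CD4 T array 2 (0.97), NK array 1 (0.97) or NK array 2 (1.19). Idh2 was lower in NK cells (-1.85 ± 0.34, adjusted p = 0.000420, limma). Polrmt, the mitochondrial RNA polymerase, was higher (1.34 ± 0.29, adjusted p = 0.00162, limma), as was Vdac1 (1.08 ± 0.20), whose call ended with averaged probe sets (0.32). Of the cell cycle list, 15 of 18 genes were called higher and none lower.

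Between NK cells labelled Ets1-deficient and Ets1-present no respiratory chain gene was called, against 3.81% of all genes (1.59% higher and 2.23% lower), and 1 had an unadjusted p below 0.05. That gene was Ndufaf7, an assembly factor of complex I, at 7.12 and 7.63 against 6.73 and 6.46 (0.79 ± 0.34, adjusted p = 0.294, limma). The count of called members depended on the setting. With the compared arrays alone 11 were called, 10 higher and 1 lower, against 9.42% of all genes. With array weights 4 were called, all higher, against 13.2% of all genes. The differences were small and mostly of 1 sign: 73 of 91 were above 0, with a median of 0.18 against 0.01 over all genes. In complex I, 29 of 33 were above 0 and in complex II all 4. With arrays centred on the housekeeping genes the median was -0.07, as the median of all genes moved to -0.24. Levels of the NK groups were fully separated for 73.6% of the members and 55.4% of all genes, with 63.7% of members and 28.4% of all genes higher in the Ets1-deficient arrays. The largest differences were those of Sdhaf3, an assembly factor of complex II (1.06 ± 0.58, adjusted p = 0.498, limma, with 4.96 and 6.45 against 4.78 and 4.50), and Atp5l (-0.68 ± 0.36, adjusted p = 0.465, limma). Atp5l thus ran against most other members. Members whose window holds the ETS core had a median difference of 0.18 (22 genes) and those whose window lacks it 0.17 (53 genes).

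Of the biogenesis list, 1 of 16 genes was called between the NK genotypes. Ppargc1a, which encodes the coactivator PGC-1alpha that drives respiratory chain genes in muscle and brown fat, was at 4.78 and 6.02 in the Ets1-deficient arrays and at 2.34 and 2.39 in the Ets1-present arrays. No array outside the Ets1-deficient pair exceeded 4.33. It rose by 3.03 ± 0.33 (adjusted p = 1.00e-05, limma), and it was called under all 14 alternative settings. Its Ets1-present values lay below the medians of those arrays (3.83 and 3.82), so the size of this difference is uncertain; against those medians the Ets1-deficient mean was higher by 1.58. Its other probe sets were also higher, by 3.62, 2.91, 1.40 and 1.31. The related Ppargc1b (-0.34 ± 0.35) and the transcription factors Nrf1 (0.00 ± 0.50), Gabpa (0.23 ± 0.39), Esrra (-0.51 ± 0.26) and Tfam (0.23 ± 0.52) were not called. The arrays labelled Ets1-deficient also had more summed CD4 T marker intensity (394 to 472 against 87.1 to 95.1). That gain was in Cd3g alone (8.52 against 4.56), and the means of Cd3e, Cd4 and Themis were slightly lower. They had less intensity of GMP markers (131 to 194 against 660 to 678), and array 2 of the Ets1-deficient pair had an actin 3'/5' ratio of 4.07 against 2.86 for array 1. The part of these differences in the levels above was not tested.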

How the data were processed

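The authors' deposited table holds linear intensities per probe set for 20 arrays, made with RMA (no version stated) per the submitters' processing notes. Their log2 was taken, because the design had assumed log2 values, and nothing was renormalised. Of 45101 probe sets, 34958 had 1 gene symbol in the platform table, 932 several and 9211 none here; 10 with several symbols name a member and were left out. The probe set with the highest mean stood for its gene. For the 94 members, 14 chosen probe sets carry the suffix s and 7 the suffix x, which mark possible matches to other transcripts, so those levels are uncertain. Among the genes named above, Atp5a1, Atp5d, Atp5e, Ndufaf7, Uqcrh and Uqcrq carry s, and Cox8a and Ndufs8 carry x. Genes exceeding the median of an array on fewer than 2 arrays were left out (4715 genes).

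All 9 groups were fitted in 1 limma 3.58.1 model (R 4.3.3; lmFit and eBayes with intensity trend, 11 residual degrees of freedom), with Benjamini-Hochberg adjustment over 13479 genes and calls at an adjusted p below 0.05. Differences are given with the model's SE. The procedure was tested on simulated data. Precision is limited by having 2 or 3 arrays a group, and no replicate columns were identical.

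The members and lists were chosen with earlier results of these data known. Named were, per comparison and complex, the called gene with the largest rise and the largest fall, the complex II subunits, tissue isoforms, the 3 members of widest and narrowest range, and up to 2 called genes per list; Sdhaf3, Ndufaf7, Ndufs8, Ccna2 and other genes outside that rule were named after their values were seen. Alternatives covered the filter, probe set choice, intensity trend, quantile normalization, housekeeping centring, compared arrays alone, a replicate block, array weights, CLP array 2 alone and leaving out each array. Figures were drawn with matplotlib 3.10.9 in Python 3.11.15.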

Additional observations from a re-analysis of the deposited data

How the results depend on the processing

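Counts of called respiratory chain genes moved with the fit (the share of all genes called in the same fit stands in brackets). With the compared arrays alone the counts were 6 (27%) in CD4 T minus pro-B, 5 (4.09%) in CLP minus LMPP, 59 (55.8%) in GMP minus LMPP, 11 (9.42%) between NK genotypes and 48 (37.4%) in NK minus CD4 T. With array weights they were 56 (55.8%) in GMP, 4 (13.2%) between NK genotypes, 38 (39.2%) in NK minus CD4 T and 26 (21.5%) in pro-B minus LMPP. After repeated quantile normalization they were 35 (30%) in CD4 T minus pro-B, 5 higher and 30 lower, 29 (19.1%) in pro-B minus LMPP, 26 higher and 3 lower, 32 (25.4%) in NK minus CD4 T, 8 (5.89%) in MPP minus HSC and 1 (3.53%) between NK genotypes. With CLP arrays 1 and 3 left out of the pooled error, a setting chosen after seeing the data, they were 25 (37%), 28 (25%), 30 (32.1%) and 8 (12.1%) in CD4 T minus pro-B, pro-B minus LMPP, NK minus CD4 T and MPP minus HSC. Without a filter on dim genes there were 7 (20.6%) in CD4 T minus pro-B and 1 (2.65%) between NK genotypes, and with averaged probe sets 1 (4.71%) between NK genotypes. Housekeeping centring gave 5 (2.98%) in MPP minus HSC, and 4 higher and 9 lower (24.7%) in CD4 T minus pro-B. In pro-B minus LMPP it gave 14 higher and 1 lower. Without that centring, 6.91% of all genes were called higher there and 10.3% lower. CLP array 2 alone gave 12 (9.12%).

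Median differences moved under housekeeping centring to 0.41 (CLP), -0.30 (LMPP minus MPP), 0.39 (MPP minus HSC), -0.070 (NK genotypes) and 0.43 (NK minus CD4 T). Quantile normalization gave -0.066 (LMPP minus MPP), 0.29 (MPP minus HSC), -0.38 (CD4 T minus pro-B), -0.56 (CLP) and 0.061 (GMP), averaged probe sets -0.066 (GMP), 0.15 (NK genotypes) and 0.10 (NK minus CD4 T), and CLP array 2 alone -0.38. The all-gene median moved by over 0.1 under housekeeping centring to 0.14 (MPP minus HSC), -0.32 (LMPP minus MPP), 1.22 (CLP), 0.25 (NK minus CD4 T) and -0.24 (NK genotypes). The cause was not tested.

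Leaving out 1 array gave counts of 4 to 18 (CD4 T minus pro-B), 21 to 70 (CLP), 13 to 22 (GMP), 6 to 9 (NK minus CD4 T) and 5 to 24 (pro-B), and 0 in the other 3 comparisons. The share of all genes called ran from 21.9% to 25.4% (CD4 T minus pro-B), 11.7% to 38.7% (CLP) and 16.9% to 24% (GMP). It ran from 1.63% to 5.74% (MPP minus HSC) and 0.772% to 1.53% (LMPP minus MPP). With no array left out it was 24.5% (NK minus CD4 T), 17.2% (pro-B) and 3.81% (NK genotypes). In the order of the counts above, the members' medians ran from -0.43 to 0.11, -1.16 to -0.70, 0.081 to 0.14, 0.15 to 0.23 and -0.088 to 0.57. They ran from 0.041 to 0.086 (LMPP minus MPP), 0.068 to 0.13 (MPP minus HSC) and 0.18 to 0.20 (NK genotypes). A lone array was assumed to vary like the other groups.

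No label says whether same-numbered arrays were paired, and the main fit did not pair them. Deviations of same-numbered arrays correlated at -0.021 to 0.368, highest between MPP and HSC. With the replicate number as a block the counts were 13 (30.7% of all genes) in CD4 T minus pro-B, 42 (22%) in CLP and 30 (30.8%) in GMP. They were 22 in NK minus CD4 T and 15 in pro-B minus LMPP, where the fit without a block called 24.5% and 17.2% of all genes. No member was called in MPP minus HSC (6.8%), LMPP minus MPP (1.88%) or between NK genotypes (3.94%). The GMP median was 0.21. Of 103 named gene differences, 34 kept their call under every alternative run and 3 turned sign: Uqcr10 in NK minus CD4 T with averaged probe sets (-0.18), and Dld (0.16) and Timm8a1 (0.086) in CLP with array 2 alone.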
